A study of Rattus norvegicus with 7 samples.

Results

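The genes described here make, recycle or use glutathione: Gclc, Gclm and Gss for synthesis, Gsr for recycling, and Gstm1, Gstm2, Gstp1, Gsta4, Gstt1 and Mgst1 among the glutathione transferases. They were taken by gene symbol, with every probe set that the platform annotation assigns to them, and not by their values. All 10 were on the array, with 20 probe sets, out of 4736 genes with a single symbol. The arrays measured primary hippocampal cultures from Wistar rats (labelled as 17-day-old), exposed over 24 h to an extract of grape seeds, which holds many polyphenols. Doses were 0, 1 and 10 µg/ml for neurons and 0, 1, 10 and 100 µg/ml for astrocytes, all in DMEM with glutamine, N1 supplement, penicillin and streptomycin, and the 0 µg/ml cultures are the controls. There was 1 Affymetrix array for each of these 7 combinations, whether a culture pooled several animals is not stated in the labels, and no combination was repeated.

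Glutathione is a tripeptide of glutamate, cysteine and glycine and the main small thiol of cells. Glutamate-cysteine ligase, formed by a catalytic subunit (Gclc) and a modifier subunit (Gclm), carries out the rate-limiting step, glutathione synthetase (Gss) completes the molecule, and glutathione reductase (Gsr) returns its oxidized form to the reduced one with NADPH. Glutathione transferases join it to electrophiles, among them products of lipid peroxidation. Several of these genes are known targets of the transcription factor NRF2, which binds antioxidant response elements, and in the brain astrocytes are known to supply neurons with precursors of glutathione.

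Promoter sequences from RefSeq (build GRCr8, rat) were matched by symbol for 8 of the 10 genes; Gsr and Gstt1 were not matched. The core of the antioxidant response element, TGACNNNGC, was searched on both strands from 250 bases before the annotated start to 50 after it. It was found once in Gclm and once in Gstp1, and 12.06% of all 33469 promoters in that table hold it. The part of the promoter with the match is shown for each of these 2 genes, with the match in capitals.

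Gclm, chr2:213031913-213032022, plus strand: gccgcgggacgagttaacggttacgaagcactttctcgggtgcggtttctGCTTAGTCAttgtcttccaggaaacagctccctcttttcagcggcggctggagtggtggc

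Gstp1, chr1:210769707-210769816, minus strand: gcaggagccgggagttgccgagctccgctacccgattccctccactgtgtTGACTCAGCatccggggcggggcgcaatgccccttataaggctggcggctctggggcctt

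In Gclm the element lies on the opposite strand, where it reads TGACTAAGC, and its first printed base is 172 bases before the start. In Gstp1 it begins 61 bases before the start and overlaps an AP-1 element, TGACTCA, which 4.63% of the promoters hold on either strand. A match describes letters only and no factor was measured at these sites.

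Signals are the authors' intensities on a linear scale, set to a common target on each array. Levels of different probe sets are not comparable, so each is followed across arrays only. Differences are in log2, after raising signals under 17.9 (the 25th percentile of all signals) to that value. A probe set was tested if its mean log2 signal in a cell type exceeded that of a signal of 79.9, the median of all signals. Of the 20 probe sets, 18 passed, with at least 1 for each gene. The other 2, both of Gsr, were dim: U73174_at had signals from 28.5 to 48.5 and U73174_g_at from 5.2 to 11.5, under the floor on all arrays. All 5 probe sets of Gstm1 and Gstm2, neighbouring genes of 1 family, and both of Gstp1 carry the suffix _s_at, which in Affymetrix naming marks probes that can match more than 1 transcript, so signal shared between relatives is possible.

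The labelled cell types were checked against marker genes. All 9 neuron markers tested were higher in neurons (limma, adjusted p below 0.05), with summed signals of 16344 to 17165 in neurons and 1025 to 2040 in astrocytes. Of 10 tested astrocyte markers 3 were higher in astrocytes and 2, Slc1a3 and Aqp4, in neurons, and sums were 61009 to 61499 in neurons and 64673 to 80051 in astrocytes. Microglial markers (5 of 6 tested higher in astrocytes) summed to 10102 to 13358 in neurons and 14202 to 21486 in astrocytes, fibroblast and meningeal markers (9 of 12) to 16513 to 18378 and 49463 to 61461, and oligodendrocyte markers (4 of 6) to 2330 to 2429 and 8852 to 14152. The fibroblast and meningeal list also held Fmod (1.15 log2, neurons minus astrocytes) and Thy1 (2.40). Both were higher in neurons, where Fmod had 7183.5 to 7298.3. They went against the 9 others called and are not read as signs of fibroblasts in the neuron cultures, although the sums include both. Lyz2, the tested microglial marker that did not pass, had 9276.5 to 12326.5 in neurons, most of the microglial sums there. Endothelial and pericyte markers summed to 419 to 607 and 238 to 364, with 1 of 2 tested higher in neurons. Mog, Mobp and Itgam were at or under the floor in all neuron arrays. Cultures of both kinds thus carried markers of other cells, whose part in the differences below was not tested, and in bulk RNA fewer cells of a type and less RNA per cell cannot be told apart. Log2 signals correlated at 0.987 to 0.988 among neuron arrays, and the astrocyte array at 100 µg/ml correlated at 0.931 to 0.951 with the other astrocyte arrays.

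**Figure D1:**
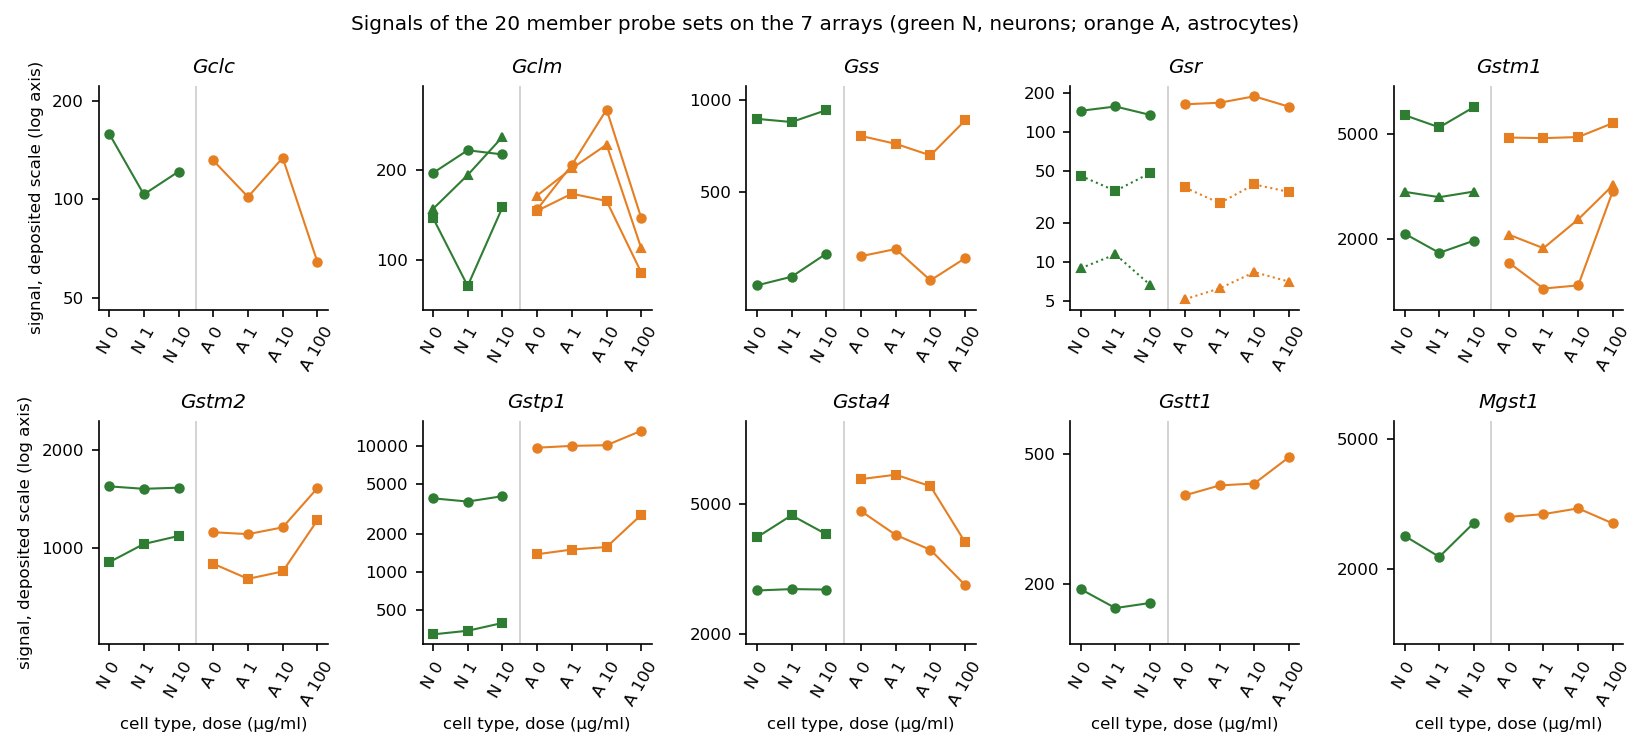
Signal on the deposited scale (log axis) of each probe set of the 10 genes on the 7 arrays; N is neurons, A is astrocytes, numbers are the dose in µg/ml, points are single arrays, each marker shape is a probe set and dotted lines are the 2 untested probe sets of Gsr. The astrocyte points of Gstp1 and Gstt1 lie above all neuron points of the same probe set, and the 100 µg/ml astrocyte array is the lowest astrocyte array for Gclc, Gclm, Gsta4, Mgst1 and the tested probe set of Gsr and the highest for Gstm1, Gstm2, Gstp1 and Gstt1. How many of all probe sets had such an extreme was not counted.

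The first comparison set neurons against astrocytes. Gstp1, the pi-class transferase, and Gstt1, the theta-class transferase, were higher in astrocytes at every dose. The gene pair for glutamate-cysteine ligase, Gss, Gsr and Mgst1 did not pass the test. Over all 7 arrays, 3 of 18 member probe sets passed, all higher in astrocytes, where 30.2% of the 4709 probe sets tested passed, 12.2% in that direction and 18.0% in the other.

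Gstp1 had signals of 3862, 3640 and 4016 in neurons with probe set rc_AI012589_s_at, in the order 0, 1 and 10 µg/ml. In astrocytes it had 9743, 10072, 10198 and 13269, in the order 0, 1, 10 and 100 µg/ml, the order kept below. Its other probe set, X02904cds_s_at, had 321, 343 and 395 in neurons and 1389, 1514, 1585 and 2859 in astrocytes. The arrays of the 2 cell types did not overlap in either, and the largest signal of both was that of astrocytes at 100 µg/ml. The log2 difference, neurons minus astrocytes, was -1.48 (SE 0.12, limma adjusted p = 8.11e-05), a mean of 3839 ± 189 (SD, n = 3) against 10820 ± 1644 (n = 4), with the first probe set. With the second it was -2.32 (SE 0.26, adjusted p = 0.000416), a mean of 353 ± 38.2 (n = 3) against 1837 ± 686 (n = 4).

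Gstt1, which conjugates small halogenated compounds among others, had signals of 193, 169 and 175 in neurons and 375, 402, 407 and 491 in astrocytes. Every astrocyte array lay above every neuron array, and the log2 difference was -1.22 (SE 0.17, adjusted p = 0.00112, limma). Arrays did not overlap, with astrocytes higher, for 4 of 18 member probe sets, against 16.8% of all tested ones, and with neurons higher for 0 of 18, against 28.4%. The remaining 1 belongs to Gsta4.

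Gsta4, an alpha-class transferase known for conjugating 4-hydroxynonenal, a product of lipid peroxidation, had signals of 2711, 2737 and 2728 in neurons with probe set X62660mRNA_at. Astrocytes had 4745, 4012, 3612 and 2814 at 0, 1, 10 and 100 µg/ml. The neuron arrays were nearly identical, while the astrocyte signals were highest without extract and close to the neuron level at the top dose. Probe set X62660mRNA_g_at had 3943, 4607 and 4032 in neurons and 5947, 6135, 5656 and 3808 in astrocytes, where only the 100 µg/ml array lay below the neuron range. Over all arrays the log2 differences of -0.45 (95% interval -0.85 to -0.05) and -0.34 (-0.75 to 0.07) did not pass (adjusted p = 0.0863 and 0.190, limma).

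Gstm1 and Gstm2, of the mu class, were higher in neurons at the doses both cell types received, whereas Gstm5 of the same class, no member here, was higher in astrocytes (1483, 1409 and 1571 against 2323, 2152, 2275 and 2009; -0.56 log2, limma adjusted p = 0.00704). Gstm1 with probe set X04229cds_s_at had 3016, 2879 and 3023 in neurons and 2080, 1849 and 2375 in the astrocytes given the same doses, but 3193 in those given 100 µg/ml. Gstm2 with J02592_s_at had 1545, 1518 and 1530 against 1118, 1103 and 1157, and 1526 at 100 µg/ml. For all 5 probe sets of these 2 genes the 3 neuron arrays lay above the 3 astrocyte arrays at shared doses, whereas the astrocyte array at 100 µg/ml overlapped or exceeded the neuron range. At shared doses the arrays did not overlap, with neurons higher, for 6 of 18 member probe sets, against 32.4% of all tested, and with astrocytes higher for 7 of 18, against 24.2%. Their log2 differences over all 7 arrays, from 0.11 to 0.36, did not pass.

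Leaving the 100 µg/ml array out therefore changed this comparison. With the 6 arrays at shared doses and dose as a block, 8 of 18 member probe sets passed (limma, adjusted p below 0.05), 5 higher in astrocytes (background 17.2%) and 3 in neurons (background 22.5%), where 39.7% of all tested probe sets passed. This fit also estimates dose terms, so fewer residual degrees of freedom remain than the 5 of the fit over 7 arrays. Its p-values thus lean more on the spread that limma borrows from other probe sets. Gstm1 was higher in neurons by 0.51 log2 (SE 0.11, adjusted p = 0.0162) with X04229cds_s_at and by 0.46 (adjusted p = 0.0225) with H32189_s_at, and Gstm2 by 0.44 (adjusted p = 0.0240) with J02592_s_at. The remaining probe sets of these genes, J02810mRNA_s_at of Gstm1 (0.26) and J03914cds_s_at of Gstm2 (0.24), did not pass. With J03914cds_s_at the untreated arrays were close, at 904 in neurons and 895 in astrocytes. Gsta4 was lower in neurons by -0.59 (adjusted p = 0.0118) and -0.50 (adjusted p = 0.0103). Gstp1 stood at -1.38 and -2.09 and Gstt1 at -1.14 in this fit. Without that array and without the block, 9 of 18 passed, against 44.3% of all tested.

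Gclc had signals of 159, 104 and 122 in neurons and 132, 102, 134 and 64.3 in astrocytes, with a log2 difference of 0.28 (95% interval -0.43 to 1.00). The 3 probe sets of Gclm stood between -0.20 and 0.18, with intervals from -0.91 to 0.92. Gss, at 866, 846 and 925 in neurons and 761, 717, 657 and 856 in astrocytes with its g_at probe set, differed by 0.24 (-0.09 to 0.57), and by -0.12 (-0.52 to 0.28) with L38615_at. Gsr with rc_AA893189_at had 146, 158 and 136 in neurons and 164, 169, 189 and 157 in astrocytes, a difference of -0.21 (-0.59 to 0.17). Mgst1, a transferase of the endoplasmic reticulum and mitochondrial outer membrane with peroxidase activity, had 2532, 2183 and 2777 against 2895, 2951, 3074 and 2762, a difference of -0.23 (-0.50 to 0.04). None of these passed, and intervals for the dim Gclc and Gclm leave room for differences near 2-fold.

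**Figure D2:**
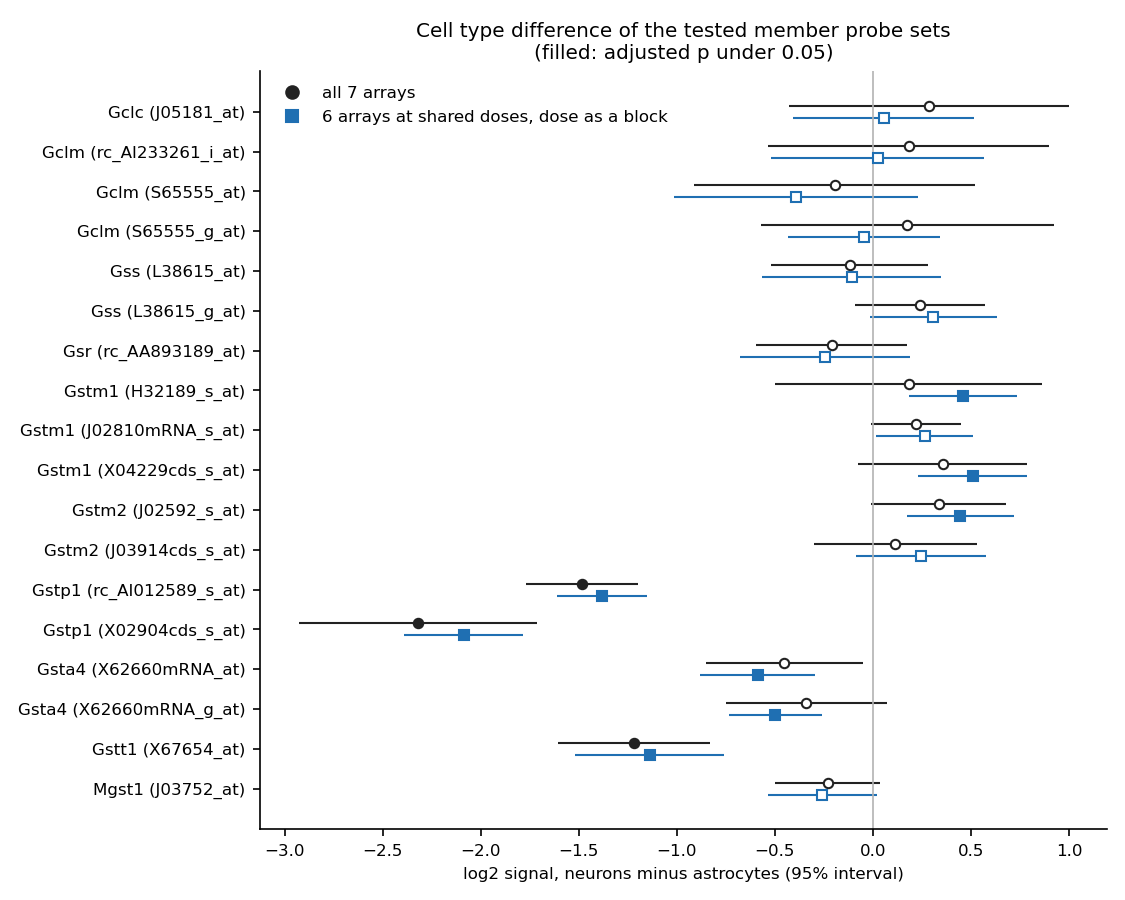
Log2 signal in neurons minus astrocytes for the 18 tested probe sets, with 95% intervals, from limma over all 7 arrays (black circles) and over the 6 arrays at shared doses with dose as a block (blue squares); filled symbols have an adjusted p below 0.05. Both probe sets of Gstp1 (-1.48 and -2.32 over all arrays) and Gstt1 (-1.22) are filled in both fits, while Gsta4 and 3 probe sets of Gstm1 and Gstm2 are filled only without the 100 µg/ml array.

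The second comparison concerned the extract in astrocytes. The 100 µg/ml array had the lowest astrocyte signal for Gclc, Gclm, Gsta4, Gsr and Mgst1 and the highest for Gstm1, Gstm2, Gstp1, Gstt1 and 1 of 2 probe sets of Gss. How many of all probe sets had an extreme on this array was not counted, so these ranks have no background. Relative to the median change of all probe sets, Gsr and Mgst1 stood above the untreated array (0.20 and 0.19 log2). The changes of Gss, Gsr, Mgst1 and 1 probe set of Gclm were no larger than 0.17 log2 either way. The median log2 change of the 18 probe sets was 0.07, with 9 above and 9 below 0, against -0.26 for the 4252 probe sets compared, of which 34.0% were above 0. Single arrays were set against each other, so these changes have no test. That median of all probe sets was -0.09 after quantile normalization. Summed microglial markers were 14202 at 100 µg/ml and 20687 to 21486 on the other astrocyte arrays. Summed astrocyte markers were 64673 and 70336 to 80051, and summed neuron markers 1025 and 1414 to 2040. Bright genes weigh most in such sums, and single markers went both ways. From 0 to 100 µg/ml the microglial Lyz2 went from 15616 to 10258.5, but Fcgr2b from 248 to 1162. Of the astrocyte markers, Id3 went from 7938 to 1332, but Glul from 5035 to 8134. The part of these cells in the changes was not tested.

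Gclc, the catalytic subunit, had 132, 102, 134 and 64.3 at 0, 1, 10 and 100 µg/ml, and the highest dose was the lowest of the 7 arrays. Its change at 100 µg/ml was -1.03 log2, or -0.77 relative to all probe sets and -0.69 after quantile normalization. The modifier subunit Gclm had 148, 209, 320 and 138 with probe set rc_AI233261_i_at, 165, 203, 244 and 109 with S65555_g_at, and 146, 167, 158 and 90.8 with S65555_at. In 2 of its 3 probe sets the signal was highest at 10 µg/ml, by 1.11 and 0.57 log2 over the untreated array, and in the last it was highest at 1 µg/ml (0.11 at 10 µg/ml). At 100 µg/ml all 3 stood below the untreated array (-0.10, -0.59 and -0.69), although relative to the median of all probe sets the first was above it (0.16).

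Gstp1, the other gene with the printed element, was 1.04 log2 higher at 100 µg/ml with X02904cds_s_at and 0.45 with rc_AI012589_s_at. The changes at 1 and 10 µg/ml were 0.05 to 0.19 in both probe sets. Gstt1 stood at 0.39 at 100 µg/ml. The probe sets of Gstm1 had 1632, 1302, 1338 and 3043 (H32189_s_at), 2080, 1849, 2375 and 3193 (X04229cds_s_at) and 4833, 4808, 4854 and 5479 (J02810mRNA_s_at), which gives 0.90, 0.62 and 0.18 log2 at 100 µg/ml, so the size differed between probe sets of 1 gene. Gstm2 had 1118, 1103, 1157 and 1526 and 895, 805, 847 and 1217, or 0.45 and 0.44.

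Gsta4 stood at -0.75 and -0.64 at 100 µg/ml. Gss stood at -0.02 and 0.17, Gsr at -0.06 and Mgst1 at -0.07, and after quantile normalization Gsr stood at 0.37. At least 2-fold changes at 100 µg/ml were those of Gclc (lower) and Gstp1 with X02904cds_s_at (higher), 2 of 18, against 25.6% of all probe sets compared, 6.63% higher and 19.0% lower. Relative to the median of all probe sets the 2 were instead Gstp1 (1.30) and Gstm1 with H32189_s_at (1.16), both higher, and after quantile normalization none reached 2-fold. Of all probe sets compared, 1088 changed at least 2-fold, 945 after quantile normalization and 973 after centring. The share of higher ones among these was 25.9%, 40.4% after quantile normalization and 41.1% after centring. At 10 µg/ml 1 of 18 reached 2-fold, Gclm with rc_AI233261_i_at (background 6.51%), and at 1 µg/ml none did (2.0%).

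**Figure D3:**
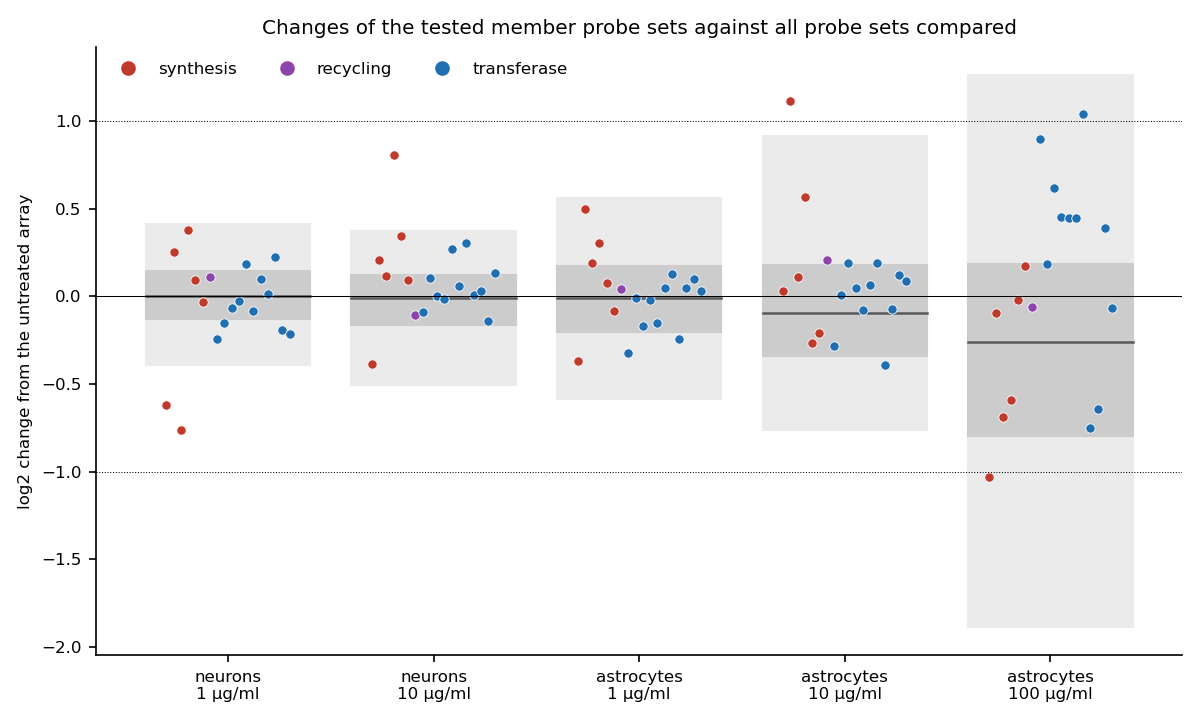
Log2 change of each treated array from the untreated array of its cell type for the 18 tested probe sets (points, coloured by role), over all probe sets compared (dark band, middle 50%; light band, 5th to 95th percentile; line, median), with dotted lines at 2-fold. At 100 µg/ml in astrocytes Gclc (-1.03) and 1 probe set of Gstp1 (1.04) lie beyond 2-fold, and the median of all probe sets is -0.26.

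A dose trend in astrocytes, in which log2 signal was regressed on log10(dose + 1), dose being in µg/ml, was fitted across all arrays with limma. Gstp1 rose with dose by 0.50 per unit (SE 0.12, adjusted p = 0.0333) with X02904cds_s_at, Gstm1 rose by 0.36 (SE 0.09, adjusted p = 0.0419) with X04229cds_s_at, and Gsta4 fell by 0.35 (SE 0.08, adjusted p = 0.0270) with X62660mRNA_at. The other probe sets of these genes had slopes of 0.21 for Gstp1 (adjusted p = 0.0922), 0.49 and 0.09 for Gstm1 (0.109 and 0.449) and -0.33 for Gsta4 (0.0573). Gclc had a slope of -0.42 that did not pass (adjusted p = 0.216). These are 3 of 18 probe sets, 2 rising and 1 falling, against 20.6% of all tested (5.03% rising, 15.5% falling). None of the 18 passed without the astrocyte array at 1 or at 100 µg/ml or without any 1 of the neuron arrays, where 30 to 156 of all 4709 probe sets passed, whereas 1 of 18 passed without the untreated astrocyte array (15.0% of all tested) and 6 of 18 without that at 10 µg/ml (36.0%). With a neuron array left out, the remaining neuron arrays are fitted exactly, so these 3 settings hold only the spread of the astrocyte arrays. Each called 30 probe sets with the astrocyte slopes unchanged, so the settings are not separate checks.

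In neurons none of the 10 genes had a dose trend that passed. Limma called 0 of 18 member probe sets, with 0 at an unadjusted p under 0.05, and 0 of all 4709 (0.0%), with 90 at an unadjusted p under 0.05. No member changed 2-fold in neurons at 1 µg/ml (background 0.561%) or at 10 µg/ml (0.764%). The widest changes at 10 µg/ml were 0.80 for Gclm with S65555_g_at (149, 193 and 259 at 0, 1 and 10 µg/ml) and -0.39 for Gclc. At 1 µg/ml they were 0.38 and -0.76, both of Gclm probe sets: S65555_at had 139, 81.9 and 150. Gclm probe sets thus went opposite ways in neurons at 1 µg/ml. The difference between the slopes of the 2 cell types passed for 0 of 18 member probe sets (0 at an unadjusted p under 0.05; background 0.0212%, limma).

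Genes with the most similar profiles over the 7 arrays were listed as a description. For Gclc these were Cryaa (Pearson's r of 0.957), Mkrn2 (0.949) and Rps6kb1 (0.949), all with dim signals that were lowest in astrocytes at 100 µg/ml (107, 55.1 and 104). For Gstp1 with X02904cds_s_at they were 2 probe sets of Ctsl, a lysosomal protease (0.998 and 0.996), and 1 of Col1a1, a collagen (0.994), which had 87.3, 91.7 and 87.4 in neurons and 607, 585, 761 and 2093 in astrocytes. The brightest Col1a1 probe set had 6537, 6478, 4488 and 4124 in astrocytes, lowest where the former was highest. The 7 points share their arrays, and for Gstp1 also the step between cell types.

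Other genes of glutathione metabolism were taken from lists, each with its brightest probe set. Among further transferases and related membrane proteins, 10 of 11 on the array were tested, and 6 were higher in astrocytes (background 12.2%) and 1 in neurons (18.0%, limma, adjusted p below 0.05). Mgst3, a microsomal transferase, was the latter, at 1912, 1803 and 1984 in neurons and 607, 473, 380 and 561 in astrocytes (1.93 log2, adjusted p = 0.000179). Hpgds, the sigma-class transferase that makes prostaglandin D2, had 71.8, 59.3 and 80.8 in neurons and 455, 817, 537 and 118 in astrocytes (-2.48, adjusted p = 0.0170), Alox5ap, the 5-lipoxygenase activating protein, stood at -1.73 and Mgst2 at -0.94. Hpgds and Alox5ap are known from microglia and macrophages. Of 6 tested microglial markers 1 was at least 2-fold lower at 100 µg/ml (Aif1, 1637, 1382, 1426 and 251 in astrocytes) and 1 at least 2-fold higher (Fcgr2b, 248, 258, 618 and 1162). Of all probe sets compared, 19.0% were at least 2-fold lower there and 6.63% higher. The part of microglia and macrophages in the change was not tested. Gstt2, a relative of Gstt1, had 810, 939, 815 and 273 in astrocytes and fell with dose by 0.81 per unit (adjusted p = 0.0361), where Gstt1 did not pass (slope 0.18, adjusted p = 0.343). It was the 1 of 10 tested in this list with a falling trend called, against 15.5% of all tested.

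Supply of precursors was measured with 9 tested genes of 11 on the array, of which 2 were higher in neurons (background 18.0%). Slc1a1, the neuronal transporter of glutamate and cysteine, had 1469, 1479 and 1451 in neurons and 438, 379, 392 and 355 in astrocytes (1.91 log2, adjusted p = 3.35e-05, limma). Gad1, which turns glutamate into GABA, was the other (2.98), and it fell with dose in astrocytes by 0.61 per unit (adjusted p = 0.0190, limma). Summed neuron markers on these astrocyte arrays were 2022, 2040, 1414 and 1025. Of 9 neuron markers tested, 2 fell and 1 rose with dose in astrocytes (limma, adjusted p below 0.05). The part of neurons in the fall of Gad1 was not tested. Mat2a, which makes S-adenosylmethionine at the entry to the route from methionine to cysteine, had 137, 106, 139 and 386 in astrocytes and rose with dose by 0.81 per unit (adjusted p = 0.0431). In this list 1 of 9 thus rose and 1 fell with dose, against 5.03% and 15.5% of all tested.

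Of 6 tested genes of NADPH supply, Me1, the cytosolic malic enzyme, was higher in neurons (0.82 log2) and Taldo1, transaldolase of the pentose phosphate pathway, in astrocytes (-0.64). That is 1 of 6 each way, against backgrounds of 18.0% and 12.2%. Idh1, the cytosolic isocitrate dehydrogenase, had 3277, 3218, 2426 and 1220 in astrocytes and fell with dose by 0.73 per unit (adjusted p = 0.0104), and Idh2, the mitochondrial enzyme, fell by 0.33 (adjusted p = 0.0412). These are 2 of 6 falling, against 15.5% of all tested. Of 8 tested genes of peroxidases and other enzymes that use or handle glutathione, Gpx7, of the endoplasmic reticulum, was higher in astrocytes, at 65.7, 154 and 135 against 718, 755, 678 and 727 (-2.70, adjusted p = 0.000354), as was Adh5, which acts on S-hydroxymethylglutathione (-0.44). Those are 2 of 8, against a background of 12.2%. Hagh, a glyoxalase, and Gpx3, the secreted peroxidase, stood at -0.64 and -0.53 at 100 µg/ml. Of 5 tested genes of turnover and export 1, Anpep, an aminopeptidase, was higher in astrocytes (-0.93, adjusted p = 0.0130, background 12.2%). Abcc1, an exporter of glutathione conjugates, and Oplah stood at 0.31 and -0.46 at 100 µg/ml. Of the NRF2 regulators Nfe2l2 had 1153, 604, 1781 and 885 and Mafk 225, 172, 170 and 382 in astrocytes, and neither passed any test. These dose trends rest on the same few arrays as those of the transferases.

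**Figure D4:**
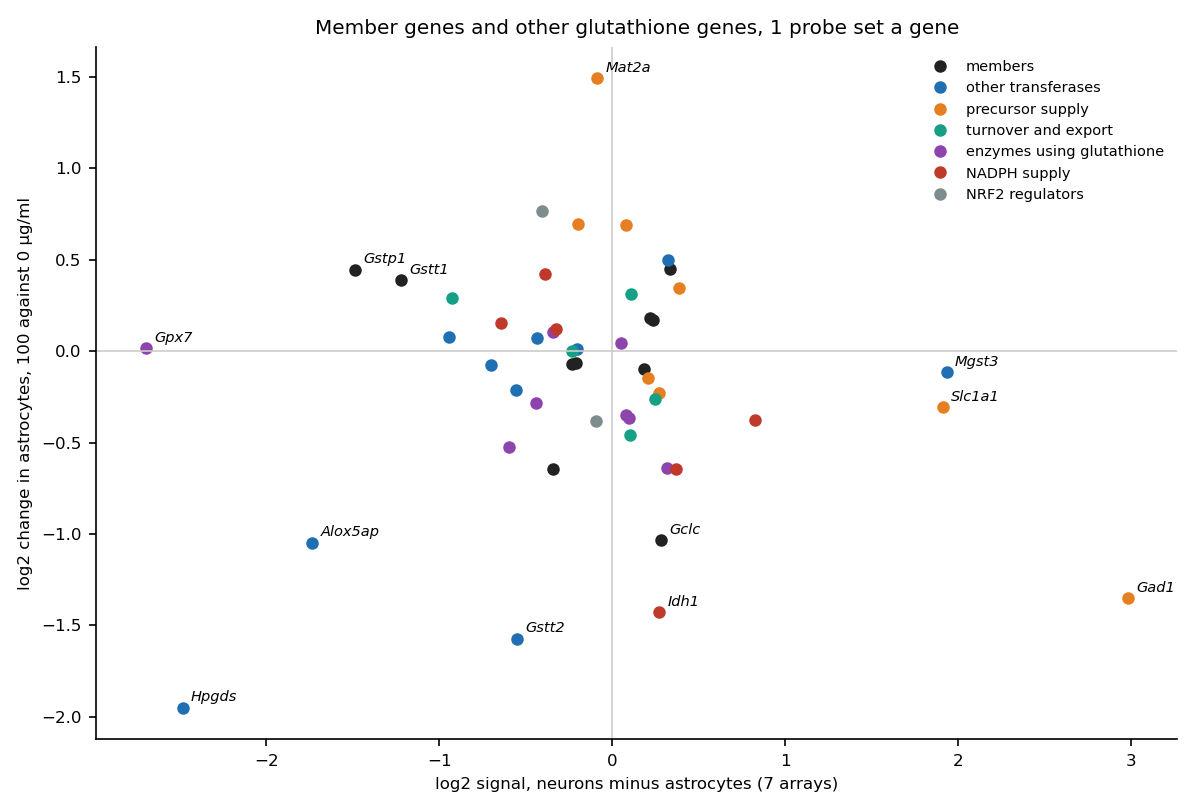
Log2 difference between cell types (neurons minus astrocytes, 7 arrays) against the log2 change in astrocytes at 100 µg/ml, for 49 tested genes, 1 probe set each, coloured by list; the 12 genes beyond 2-fold on either axis are named. Hpgds (-2.48), Gpx7 (-2.70) and Alox5ap (-1.73) lie at the left with Gstp1 and Gstt1, and Mgst3 (1.93), Slc1a1 (1.91) and Gad1 (2.98) at the right.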

How the data were processed

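Total RNA (100 ng) was amplified and biotin-labelled in a two-cycle procedure, per the labels' protocols. The deposited values are signal intensities from GCOS, per the submitters' processing notes, which give neither version nor settings. Trimmed means (2% off each end) of the 7 arrays were 500.7 to 500.9, so the scale was kept. Of 8799 probe sets, 59 controls were left out. Gene IDs of all 20 member probe sets had the same symbol in RefSeq. Cell types were compared over 3 and 4 arrays (5 residual degrees of freedom), and dose trends with an intercept and slope per cell type (3), using limma 3.58.1 in R 4.3.3 (trended prior, two-sided, Benjamini-Hochberg adjustment over all 4709 probe sets tested, threshold 0.05). The spread is that between arrays of 1 cell type at different doses. Precision is limited by there being 7 arrays. On simulated data with 4709 probe sets, 100 of 100 differences between cell types of 1 log2 were recovered at a noise SD of 0.134. That SD was the median over the neuron arrays alone, and no dose effect was added to these differences. The wider spread of astrocyte arrays across doses was thus not simulated. The recovery therefore says little of the member probe sets, least of all those of Gclc and Gclm (SE 0.31 to 0.32). The members, lists and alternatives were chosen with earlier results of these data known. All member probe sets are named, with, per list of pathway genes, up to 4 called genes by cell type difference and 2 by change at 100 µg/ml, and the 3 most alike profiles for Gclc and Gstp1. Aif1 is among the markers so chosen; the brightest Col1a1 probe set was added after its values were seen.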

Additional observations from a re-analysis of the deposited data

Results flagged for a closer look

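In 2 member probe sets every treated neuron array moved one way from its untreated array and every treated astrocyte array the other. The share of all probe sets with this pattern was not counted, so the count has no background. Changes of a cell type share its untreated array, so their directions are not independent. Neuron changes of Gsta4 with X62660mRNA_at were only 0.014 and 0.009 log2 at 1 and 10 µg/ml. For Gsta4 with X62660mRNA_at the mean change was 0.01 in neurons and -0.46 in astrocytes, a difference of 0.47 log2. For Gstt1 it was -0.17 and 0.20, a difference of -0.37. Neuron means cover 1 and 10 µg/ml and astrocyte means also 100 µg/ml, so the 2 sides differ in dose. In astrocytes the changes at 1, 10 and 100 µg/ml were -0.24, -0.39 and -0.75 for Gsta4 and 0.10, 0.12 and 0.39 for Gstt1. With the other Gsta4 probe set, X62660mRNA_g_at, they were 0.04, -0.07 and -0.64, which are not all one way. These mean differences were not tested; the difference between dose slopes did not pass for either (adjusted p = 0.498 and 0.726, limma).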

How the results depend on the processing

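Gstp1 and Gstt1 stayed higher in astrocytes with an adjusted p below 0.05 under every alternative in which they were tested. The count of member probe sets that differed between cell types (3) was 3 to 9 with single arrays left out and 8 at shared doses with dose as a block. The direction of Gclm turned with S65555_at when neurons at 1 µg/ml were left out (0.077; -0.39 to 0.077 over single arrays left out). With S65555_g_at it turned after quantile normalization (-0.0015), at shared doses (-0.046), and when astrocytes at 100 µg/ml (-0.046) or neurons at 10 µg/ml (-0.030) were left out (-0.046 to 0.37 over single arrays); none of these passed. The count of astrocyte dose trends (3, all probe sets 969) was 0 to 6 with single arrays left out (30 to 1694). It was 0 with no signal filter (10), 0 with ranked doses (47) and 1 with a constant variance prior (861). The member count at 2-fold in astrocytes at 10 µg/ml (1, all probe sets 277) was 0 with a filter at the 75th percentile (115). Against the mean of lower doses it was 0 (233). At 100 µg/ml (2, all probe sets 1088) it was 0 after quantile normalization (945), 1 with that filter (416) and 1 against lower doses (985). Centring, chosen after seeing the data, left 2 (973). Counts over all probe sets moved too: cell types 1423, but 892 with the stricter filter and 937 without untreated neurons, and 2086 without astrocytes at 100 µg/ml; astrocyte trends 969, but 10 with no filter, 606 with the stricter one, 47 with ranked doses and 30 to 1694 with single arrays left out; slope differences 1, but 0 to 100. With no filter, 2-fold changes numbered 355 and 357 in neurons (25 and 34) and 466, 728 and 1805 in astrocytes (85, 277 and 1088), and with the stricter filter 0, 1, 22, 115 and 416. Against lower doses the neuron count at 10 µg/ml was 22. Rising trends were 24.5% of the astrocyte calls and 34.6% after quantile normalization. The labels give no replicate numbers, so the only pairing of arrays was by dose, in the fit with dose as a block. Among the members only the 2 untested probe sets of Gsr lay under the filter value of 79.9 on all arrays. Low signals limit Gclc and Gclm too. Gclc had 64.3 in astrocytes at 100 µg/ml, and Gclm with S65555_at had 81.9 in neurons at 1 µg/ml and 90.8 in astrocytes at 100 µg/ml.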
